A study of Mus musculus with 5 samples.

Results

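Mouse sarcoma cells exposed to a high dose of doxycycline for 3 h were compared with cells exposed to a low dose for the same 3 h. The comparison rests on 2 of the series' 5 arrays, those whose titles name the high and the low dose at 3 h, and it uses no control array. Per the series' design, the tumour cell lines came from soft tissue sarcomas of EWS/ATF1-induced mice and carry doxycycline-inducible EWS/ATF1 alleles, so the drug's concentration sets the level of the fusion. All 5 groups carry those alleles on a mixed C57/BL6, 129 and ICR background. The remaining arrays are a 3 h control, a 48 h control and a 48 h high dose. The concentrations behind "low" and "high", the promoter that drives the fusion and the animals' age are not given in the labels used here. The labels also leave out which tumour line supplied each array and whether controls received doxycycline, so dose and line cannot be told apart.

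EWS/ATF1 is the product of the translocation that defines clear cell sarcoma. It joins the activating part of EWS, an RNA-binding protein, to the DNA-binding domain of ATF1. ATF1 is a basic leucine zipper factor of the CREB family, which binds the cyclic AMP response element (CRE, TGACGTCA) and its half-site TGACG and normally waits for phosphorylation by protein kinase A. In the fusion that dependence is lost, and genes with a CRE can be switched on without the signal. Fos, a partner of Jun in the AP-1 transcription factor, is a classical CRE-containing early gene and the one that the study's title names. Early genes are also driven by serum response factor, which binds the CArG box beside CREB sites and, with another set of cofactors, controls actin and contractile genes.

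Levels below are log2 signals relative to the 75th percentile of each array, and a difference is the high-dose level minus the low-dose level. Of 20016 named genes, 14349 were well above background on both arrays. Each group has 1 array, so no difference has a replicate check and no p-value is given. The median scanner error of a difference was 0.20. For probes spotted 5 times or more, the median SD of a log2 difference, with the spread between spots on both arrays combined, was 0.0917. Neither holds the variation between cultures. A gene was called where the doses differed at least 2-fold, that is, by 1 or more on the log2 scale. The 75th percentile of the signal was 588 on the low-dose and 556 on the high-dose array, between 420 and 725 over all 5, and 33427 and 33267 of 55681 probes were above background. Slide and scan were 1 and the same for all 5 arrays.

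The labels call the samples tumour cells. Of 8 neural crest markers 7 were above background on both arrays, with Foxd3 the exception, and their summed linear level was 30.9 and 33.4 (low and high dose). The Schwann cell and glial markers S100b and Mbp were above background on both arrays while Gfap was not. Of 6 melanocyte markers, Dct and Tyrp1 were below background on both arrays. Of 5 epithelial markers 1 was above background on the low-dose and 3 on the high-dose array, with summed levels of 0.095 and 0.314.

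The promoters shown next are those of some of the genes described below, taken from RefSeq on GRCm38.p6 and spanning 250 bases before to 50 bases after the annotated start. Capitals mark TGACG or its reverse complement CGTCA, the full CRE where these letters make one, and in Myl9 the CArG box. Fos lies at chr12:85473640-85473939 (plus strand), Areg at chr5:91139349-91139648 (plus), Nr4a1 at chr15:101266596-101266895 (plus), Nr4a3 at chr4:48045055-48045354 (plus), Wdr92 at chr11:17211643-17211942 (plus) and Myl9 at chr2:156775214-156775513 (plus).
Fos: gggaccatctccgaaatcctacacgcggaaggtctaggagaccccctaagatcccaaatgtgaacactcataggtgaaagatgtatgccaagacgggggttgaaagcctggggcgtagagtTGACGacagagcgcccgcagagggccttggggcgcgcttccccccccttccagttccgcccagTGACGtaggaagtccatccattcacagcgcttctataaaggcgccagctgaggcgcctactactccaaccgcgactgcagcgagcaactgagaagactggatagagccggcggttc
Areg: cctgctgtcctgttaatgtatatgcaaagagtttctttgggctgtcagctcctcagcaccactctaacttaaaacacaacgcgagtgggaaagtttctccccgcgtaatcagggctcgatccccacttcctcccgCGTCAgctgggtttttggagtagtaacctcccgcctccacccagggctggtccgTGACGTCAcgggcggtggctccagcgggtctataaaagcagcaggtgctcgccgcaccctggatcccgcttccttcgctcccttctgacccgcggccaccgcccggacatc
Nr4a1: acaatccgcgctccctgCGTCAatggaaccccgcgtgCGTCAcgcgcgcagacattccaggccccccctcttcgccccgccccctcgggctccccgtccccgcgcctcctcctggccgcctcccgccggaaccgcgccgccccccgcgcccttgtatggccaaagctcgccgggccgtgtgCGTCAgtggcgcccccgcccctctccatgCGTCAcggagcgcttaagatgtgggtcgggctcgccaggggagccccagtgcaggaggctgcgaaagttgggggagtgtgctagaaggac
Nr4a3: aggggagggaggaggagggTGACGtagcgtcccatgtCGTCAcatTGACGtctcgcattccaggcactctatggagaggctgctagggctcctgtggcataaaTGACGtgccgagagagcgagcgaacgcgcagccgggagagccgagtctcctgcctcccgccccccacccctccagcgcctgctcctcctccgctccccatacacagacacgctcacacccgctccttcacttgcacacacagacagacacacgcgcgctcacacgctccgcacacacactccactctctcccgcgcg
Wdr92: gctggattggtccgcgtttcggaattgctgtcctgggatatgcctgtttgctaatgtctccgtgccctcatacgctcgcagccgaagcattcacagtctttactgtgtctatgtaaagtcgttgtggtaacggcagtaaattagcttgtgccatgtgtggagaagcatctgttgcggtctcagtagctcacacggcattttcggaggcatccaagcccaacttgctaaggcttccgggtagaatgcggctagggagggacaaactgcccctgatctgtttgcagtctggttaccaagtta
Myl9: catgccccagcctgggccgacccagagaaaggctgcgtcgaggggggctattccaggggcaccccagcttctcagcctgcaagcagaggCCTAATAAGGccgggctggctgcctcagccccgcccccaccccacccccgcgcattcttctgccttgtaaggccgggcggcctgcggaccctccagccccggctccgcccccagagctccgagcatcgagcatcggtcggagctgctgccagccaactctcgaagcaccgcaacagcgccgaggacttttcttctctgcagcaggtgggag

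In the Fos window TGACG stands at positions -129 and -66 from the start, and no full CRE was found. Areg holds 1 full CRE, at -61. Nr4a1 and Nr4a3 hold 4 half-sites each, and Wdr92 holds none of the motifs searched. The Myl9 window holds a CArG box at -161, while that of Acta2, another contractile gene and not shown, holds no exact match to the motifs searched. Near matches were not counted. The Acta2 window holds ccctatatgg and ccttgtttgg, which resemble the CArG box, so the search does not show that such sites are absent. Motifs were searched on both strands, and a TGACG inside a full CRE was also counted as a half-site.

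At the high dose 183 genes were at least 2-fold higher than at the low dose, or 1.28% of those measured, and 127 were at least 2-fold lower, or 0.885%. Together these are 310 genes, or 2.16%. The shares of 1.28% higher and 0.885% lower are the background for every count of called list members below. Beyond 4-fold there were 34 genes higher and 17 lower. The median difference over all genes was -0.02, and 93.1% of genes lay within 1.5-fold. Differences were more frequent among dim genes. Of the genes called, 135 higher and 95 lower had a level under 0 on their brighter array. Among 8568 genes at 0 or more there, 48 were higher and 32 lower, or 0.560% and 0.373%. Just inside the upper threshold were Dnajc22 and Casq2 at 1.01, and just outside it Nr4a2 at 0.99. On the lower side Defb28 was counted at -1.01 and Ndc80, at -0.998, was not.

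**Figure D1:**
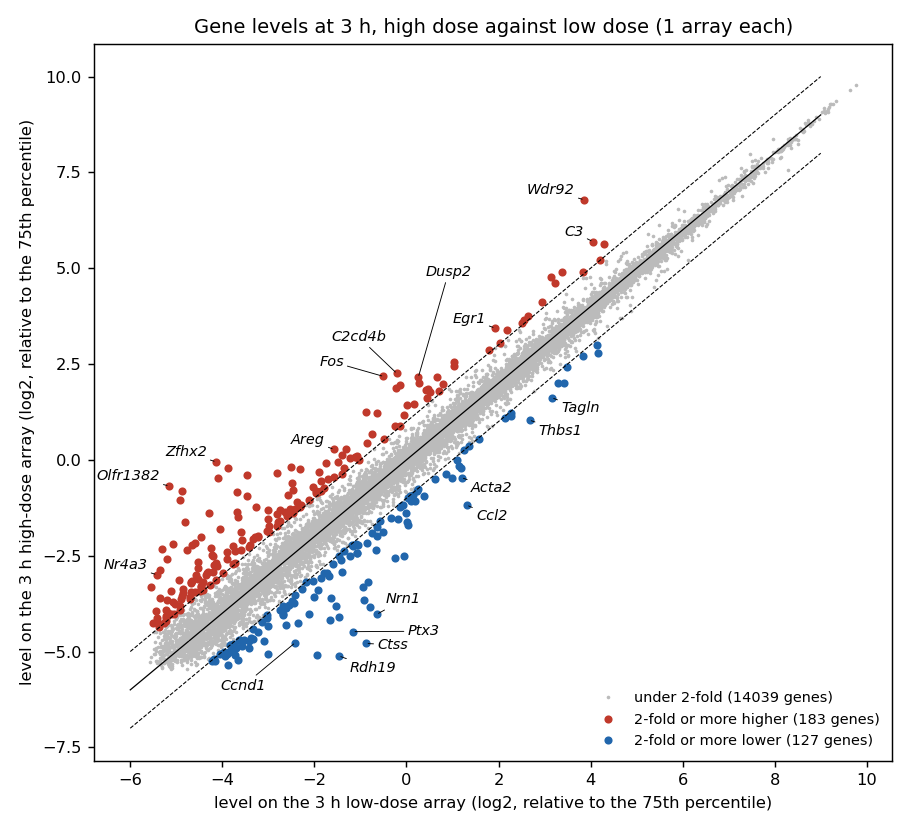
Level of each of 14349 genes on the low-dose array (horizontal) and the high-dose array (vertical) at 3 h, in log2 relative to each array's 75th percentile, 1 array per axis. The solid line marks equal levels and the dashed lines a 2-fold difference; 183 genes lie above the upper and 127 below the lower dashed line, most of them at levels under 0.

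Fos and several other early response genes were higher at the high dose. Fos stood at -2.22 in the 3 h control, at -0.50 with the low and at 2.18 with the high dose, and at -2.22 and 2.86 on the 48 h control and high-dose arrays. Both controls were thus the lowest and both high-dose arrays the highest. The difference between the doses was 2.68, or 6.39-fold, with an SE of 0.0309 over 10 spots. Among 18 measured AP-1 subunits, Fos was the 1 called and the list median was -0.03. No other Fos family gene was called. Fosb differed by 0.08, Fosl2 by -0.25 and Fosl1 by -0.78. Among the Jun partners, Jun differed by -0.66, Junb by 0.43 and Jund by 0.03. Atf3, a stress-induced relative, differed by 0.81.

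In the list of Egr and other immediate early genes, 5 of 40 measured members were higher and 0 lower, with a median of 0.07. Egr1, a zinc finger factor induced within minutes of mitogens, read 0.02 (3 h control), 1.92 (low dose) and 3.44 (high dose). Its 48 h levels were 0.21 and 2.15. The low-dose level was intermediate at 3 h, and the doses differed by 1.52, or 2.87-fold (scanner error 0.20). Nr4a3, an orphan nuclear receptor and CREB target, was below background in both controls, at -5.43 with the low and -2.99 with the high dose, and at -0.39 after 48 h of the high dose. Its difference of 2.43 had an SE of 0.0856 over 9 spots, and it was 0.86 after another background correction (normexp). Its low-dose level is close to background. Nr4a1, of the same receptor family, read 3.48, 3.84 and 4.89 on the 3 h arrays (control, low, high), and 3.30 and 4.58 at 48 h, a difference of 1.05 between doses. Here the low dose lay closer to the controls than to the high dose. Nr4a2, the third receptor of the family and just outside the threshold, differed by 0.99. Ier2, an early nuclear protein, stood at -1.71 and -0.50 for the low and high doses (difference 1.22), with both controls near the low dose at -1.98 and -1.95. Gadd45a, a stress sensor in growth arrest, stood at 3.23 and 4.60 (difference 1.37), with controls at 2.94 and 3.61.

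CREB and cAMP targets were called in 4 of 34 cases as higher, namely Fos, Nr4a3, Areg and Nr4a1, and in 1 as lower, Ptgs2. The list median was 0.26, against -0.02 over all genes, with 21 members above 0 and 13 below. Areg encodes amphiregulin, a ligand of the EGF receptor. It read -2.31 in the 3 h control, -1.58 with the low and 0.28 with the high dose, then -3.07 and 4.37 at 48 h. The doses differed by 1.85, or 3.61-fold, and the 48 h high-dose level was the highest of the 5. Of 14 measured EGF family ligands and receptors Areg was the 1 called, and the median was 0.19. Ptgs2, the inducible cyclooxygenase, ran the other way. It stood at -2.82 (3 h control), -0.66 (low dose) and -2.36 (high dose), and at -3.80 in the 48 h control, so the low dose was the highest, and the doses differed by -1.70 (SE 0.0331 over 9 spots).

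Genes that report ERK signalling were called in both directions, with 4 of 28 measured members higher, 2 lower and a median of 0.09. Beside Areg and Egr1, the higher ones were Etv1, a PEA3 family factor, at 1.43, and Lif, a cytokine of the IL-6 family, at 1.27. Etv1 levels were -1.18, -1.49, -0.06, -0.15 and -2.96 on the 3 h control, low, high, 48 h control and 48 h high-dose arrays. The 48 h control and the 3 h high dose were therefore close to each other. Lif stood at -3.29 and -2.02, and its difference was 0.77 after normexp correction. The lower genes were Ccnd1 and Plaur, described with the genes lower at the high dose. Of 9 measured MAP kinase phosphatases, which switch ERK and its relatives off, Dusp2 was the 1 called. It stood at -0.33 in the 3 h control, 0.26 with the low and 2.16 with the high dose, and at -0.09 and 4.30 at 48 h. Its difference was 1.90, or 3.73-fold, and the list median was 0.28 with 7 members above 0.

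Wdr92, a WD repeat protein known as a partner of the R2TP and prefoldin-like chaperone complexes, was higher at the high dose on both of its probes. It stood at 3.19 (3 h control), 3.85 (low dose) and 6.79 (high dose), and at 3.75 and 9.30 at 48 h. On this probe the high-dose arrays were the highest at both times. The difference of 2.93, or 7.64-fold, had a scanner error of 0.20, and the second, dimmer probe gave 2.59. That probe read -4.53 and -1.93 for the low and high doses but -4.99 and -4.87 in the 48 h control and at the 48 h high dose, so the 2 probes disagree at 48 h. The other 13 measured members of its list, the R2TP and prefoldin-like partners, were within 2-fold, and the list median was -0.02.

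The paralogues C2cd4b and C2cd4a, which encode nuclear proteins with a C2 calcium-dependent domain, were both higher. C2cd4b read -0.91, -0.21 and 2.26 on the 3 h arrays (control, low, high) and -0.28 and 2.49 at 48 h, a difference of 2.47 with 2.34 on its second probe. C2cd4a read -2.84, -2.47 and -0.78, then -2.52 and -0.48 at 48 h, a difference of 1.69 with 2.05 on its second probe. In both genes the high-dose arrays of either time lay above all others. Csf2rb2, a beta chain of the interleukin 3 receptor, stood at -0.88 with the low and 1.26 with the high dose, a difference of 2.14 with 1.75 on a second probe. Its controls were at -1.32 and -0.27 and its 48 h high-dose level at 4.60. Csf2rb2 is a close paralogue of Csf2rb, named for that reason after its value of 1.24 was seen, and their probes may share signal. Rasd1, a Ras-like protein induced by dexamethasone, differed by 2.09 and Aif1l, an actin-bundling protein, by 1.87. Aif1l read -0.51, -0.64, 1.23, -0.02 and 4.54 in the order given for Etv1, so the low dose did not exceed the controls. Foxl1, a forkhead factor, stood at -4.92 and -1.06 for the low and high doses, a difference of 3.87, with -1.58 after 48 h of the high dose.

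**Figure D2:**
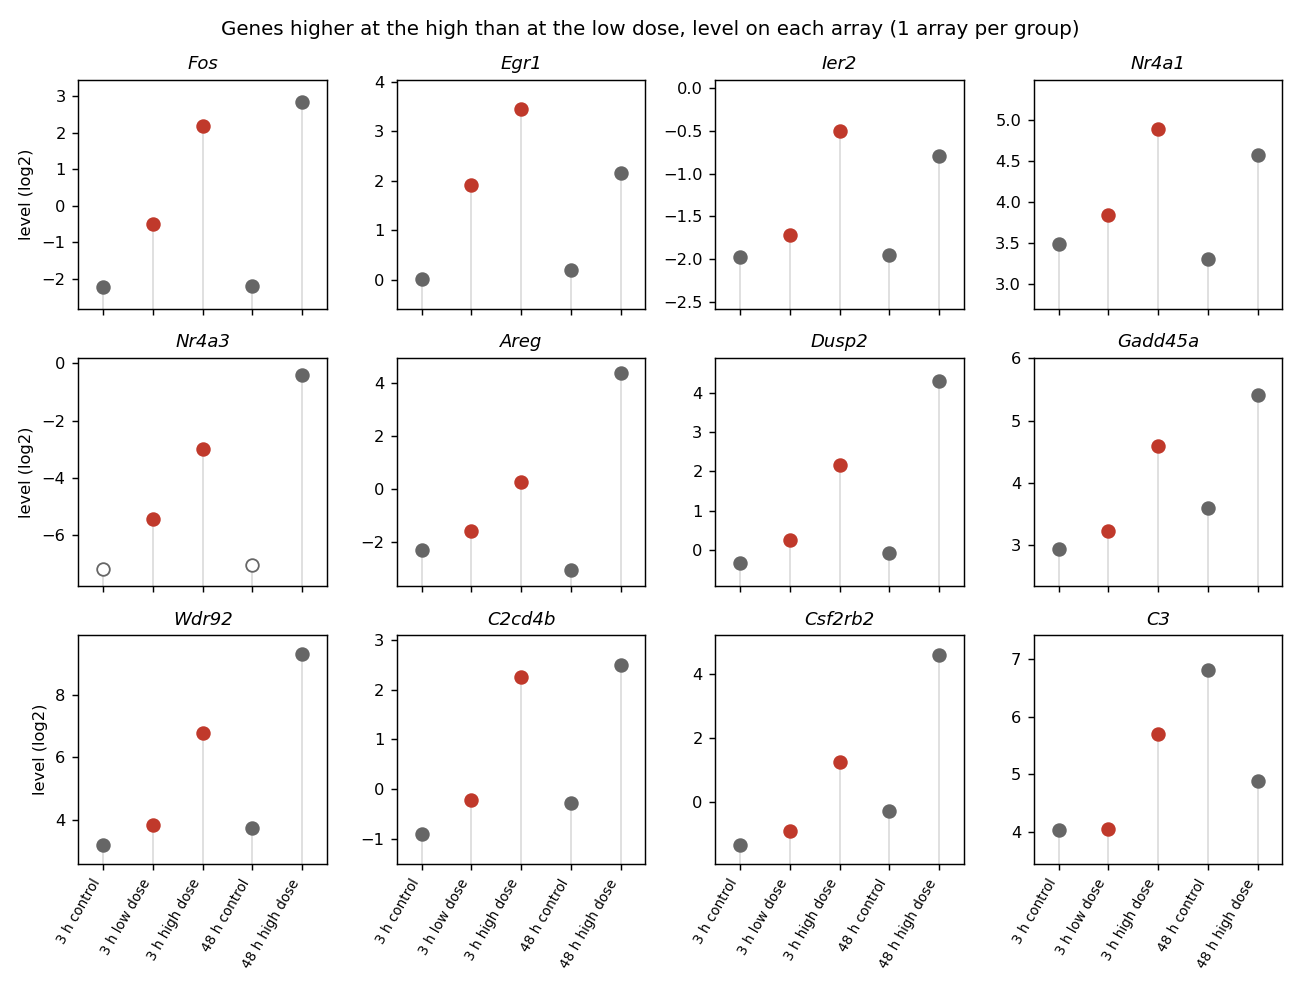
Level on each of the 5 arrays, in log2 relative to the array's 75th percentile, of 12 genes whose level was higher with the high dose; red points are the 2 arrays compared, grey points the others, and an open point is below background. In 11 of the panels the 3 h high-dose array lies above both controls, while C3 is highest in the 48 h control; vertical scales differ between panels.

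The largest positive differences belonged to dim genes. Olfr1382, an olfactory receptor gene, stood at -5.16 with the low and -0.68 with the high dose, a difference of 4.48. Zfhx2, a zinc finger homeobox gene, gave 4.09 on the probe used here and -0.21 on its second probe, also above background on both arrays, so its probes disagree. Krtap4-16 differed by 3.61 and stood at -4.01 and -2.04 in the 48 h control and at the 48 h high dose. Spn, the leukocyte sialophorin, differed by 2.99. The second probes of Olfr1382, Krtap4-16 and Spn were above background on neither array and give no check. Olfr213 at 4.06 and Ifna5, an interferon alpha gene, at 3.65 have 1 probe each, with 48 h high-dose levels of -4.01 and -3.60. Stand-out arrays were counted over the 13472 genes above background on all 5 arrays. This leaves out Olfr1382 and Olfr213, and also Rdh19, which was high on the low-dose array alone. In the counted genes, the 3 h high-dose array stood at least 4-fold above the other 4 arrays in 4 and at least 4-fold below them in 0. The 4 were Gata4, Ifna5, Kif6 and Zfhx2 (Gata4 and Kif6 named after their values were seen). The low-dose array stood above in 0 and below in 1, the keratin gene Krt2. The 48 h high-dose array stood above in 240 and below in 185. Over 189 measured genes of olfactory receptor and other tissue-restricted families, 5 were higher and 2 lower, with a median of 0.04. Over all measured genes the shares were 1.28% higher and 0.885% lower.

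A further 171 genes passed 2-fold as bounds, being above background at the high dose only, and 34 passed in the other direction. The counts are not comparable, because the dimmest level above background was -6.44 on the low-dose and -5.50 on the high-dose array. The largest bound was at least 121-fold, for Gm10487, followed by the olfactory receptor genes Olfr828, Olfr229 and Olfr1215 and by Prok2, a secreted prokineticin, at least 69.4-fold. Of these 5, Gm10487 and Olfr828 also read far above their 3 h low-dose levels (-7.04 and -7.72) after 48 h of the high dose, at -1.28 and -0.57. Olfr229, Olfr1215 and Prok2 were at -7.12, -7.26 and -7.02 there. Genes above background on 1 array alone numbered 317 on the low-dose and 303 on the high-dose array.

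Where a gene had several probes above background on both arrays, most probes gave the same sign. Of 28 such genes called higher, 25 had every probe higher and 15 had every probe past 2-fold. Of 16 called lower, all 16 had every probe lower and 10 had every probe past 2-fold. Over all 3772 measured genes with several probes, 62.0% had probes of 1 sign. All probes were past 2-fold in 25 of them, or 0.660%, and these are the called genes just counted. A called gene has 1 probe past 2-fold by the call itself, so its shares and those of all genes are not a like comparison. Besides Wdr92 and C2cd4b, the largest differences by the weaker probe were those of Neurod1, a neurogenic bHLH factor (2.25 and 2.16), and Jakmip2 (-2.32 and -2.11). Neurod1 stood at -3.23, -4.04, -1.79, -3.37 and -3.86 in the order given for Etv1, and only the 3 h high-dose array was raised.

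Acute phase and NF-kB genes were called in both directions, with 4 of 24 measured members higher, 2 lower and a median of 0.07. Saa3, a serum amyloid, stood at -0.15 and 1.96 for the low and high doses (difference 2.11). Its level was -0.06 in the 3 h control but 1.60 in the 48 h control. The other higher members were Lif, Tnfaip3, which restrains NF-kB, at 1.13, and Lcn2, the siderophore-binding lipocalin, at 1.02. The lower members were Ptgs2 and Tnfaip2, at -1.91 with -1.08 on a second probe. Complement C3 read 4.04, 4.05, 5.70, 6.82 and 4.88 in the order given for Etv1, a difference of 1.65 between doses (SE 0.0123 over 10 spots) with 1.74 on a second probe. C3 was thus highest in the 48 h control. Interferon-induced genes had 0 of 32 members called, and 22 of them lay below 0, with a median of -0.27.

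Genes lower at the high dose included contractile genes of the kind that serum response factor controls. Of 18 measured, 4 were lower and 0 higher, with a median of -0.18. Tagln, the actin-binding transgelin, read 1.70 in the 3 h control, 3.16 with the low and 1.62 with the high dose, and -0.03 and 0.40 at 48 h. Acta2, smooth muscle actin, read 0.34, 1.20 and -0.47, then -2.19 and -2.43. In both genes the low-dose array was the highest of the 5. The differences between doses were -1.54 for Tagln and -1.67 for Acta2 (SE 0.0325 over 9 spots). Cnn1, calponin, stood at -1.07 with the low and -2.43 with the high dose, and at -3.52 in the 3 h control. Its difference of -1.36 became -0.97 after normexp correction. Myl9, a myosin light chain, stood at 3.85 and 2.71 (difference -1.13), with 48 h levels of 2.57 (control) and -0.95 (high dose).

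Matrix genes were lower in 5 of 38 measured cases and higher in 0, with a median of -0.19 and 25 members below 0. Thbs1, the matricellular thrombospondin, read 0.79 in the 3 h control, 2.67 at the low dose, 1.04 at the high dose and 0.74 and -3.42 at 48 h. The high dose at 3 h was close to both controls and the low dose stood above them, with a difference of -1.64. Fbln2, fibulin, was likewise highest at the low dose, at -0.996, 0.03, -1.71, -1.04 and -2.28 in the order given for Etv1, a difference of -1.74. Col1a1, a chain of type I collagen, was lower by 1.25 on the log2 scale, at 0.87 and -0.38, and its controls were at 0.51 and 0.80. The lysyl oxidases, which cross-link collagen, followed with Lox at -1.48 (-2.15 on a second probe, -0.87 after normexp) and Loxl1, the fifth of the called matrix genes, at -1.10 (-0.72 on a second probe). Ogn, the proteoglycan osteoglycin, stood at 3.35, 3.43, 2.01, 3.88 and -0.70 in the order given for Etv1. Here both controls and the low dose were alike and the high dose lay below them at both times.

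Fibroblast genes had a median of -0.54 over 14 measured members, 11 of them below 0, and 2 were called lower, Mfap5 at -2.34 and Col1a1. The summed linear level of 8 fibroblast markers was 7.84 with the low and 4.39 with the high dose, with all 8 above background on both arrays. In the controls the sum was 7.95 and 8.39. In RNA from a whole culture, fewer cells of a type and less RNA per cell cannot be told apart. Whether other cells in the culture contribute to the matrix values was not tested.

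The 32 measured targets of TGF-beta and BMP had a median of -0.05. Plaur, the urokinase receptor, read -3.02 (3 h control), -0.19 (low dose) and -1.54 (high dose), with -3.39 and 0.32 at 48 h (control, high dose). It was above the 3 h control at either dose and highest among the 3 h arrays at the low dose. Its difference between doses was -1.36, and the urokinase and serpin list had a median of -0.12.

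Chemokines were called lower in 4 of 11 measured cases and higher in 0. The median was -0.28, but with dim probes kept it was 0.10, and after normexp it was -0.03. Ccl2, which draws monocytes, read -0.36 in the 3 h control, 1.31 with the low and -1.18 with the high dose, and -1.87 and -2.55 at 48 h. The doses differed by -2.50, or 5.65-fold (SE 0.0336 over 10 spots), with the low dose again highest. Ccl7, its neighbour in the same gene cluster, stood at -0.93 and -3.65, a difference of -2.72. The others, Cxcl5 at -1.16 and Ccl17 at -1.02, were near background at the high dose, at -5.10 and -4.84, and gave -0.28 and -0.36 after normexp.

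Ptx3, a soluble pattern recognition pentraxin that takes part in hyaluronan matrix, was the 1 called of 12 genes of its list. Its levels were -1.99 in the 3 h control, -1.16 at the low dose, -4.48 at the high dose and -4.01 in the 48 h control, and it was below background at the 48 h high dose. The difference was -3.33 (scanner error 0.27), and the list median was 0.11. The high dose lay near the 48 h control and the low dose near the 3 h control.

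Macrophage and antigen presentation genes were lower in 3 of 12 measured cases and higher in 0, with a median of -0.29. Ctss, cathepsin S of antigen-presenting cells, had the most negative difference of all genes. It read -0.78 in the 3 h control, -0.87 at the low dose, -4.79 at the high dose, -4.67 in the 48 h control and 1.43 at the 48 h high dose. Cd5l, a protein secreted by macrophages, read -1.33, -1.47, -4.10, -3.82 and 1.58. Both genes divide the arrays in the same way, with the 3 h high dose and the 48 h control low and the rest high. Cd74, the invariant chain, stood at 0.61 and -0.50 (difference -1.11, and -0.96 after normexp). Of 10 macrophage markers, the low-dose array had 9 above background and the high-dose array 5, where Ptprc, Tyrobp, Lyz2, C1qa and C1qc were not. The 48 h control lacked the same 5, and the 3 h control lacked Ptprc and C1qa. The summed level of the 10 was 8.16 and 7.18 for the low and high doses, 8.79 and 8.54 in the 3 h and 48 h controls, and 45.4 after 48 h of the high dose. The part of macrophage RNA in the other differences was not tested.

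Several other genes with large negative differences were also low at the 3 h high dose and in the 48 h control. Unlike Ctss and Cd5l, they were low at the 48 h high dose too. Nrn1, the neurite growth protein neuritin, read -1.26, -0.64, -4.03, -4.18 and -3.11 in the order given for Etv1, a difference of -3.39. Plxdc2 read -0.18, -0.06, -2.52, -2.60 and -3.06, and Srpx read -0.88, -0.94, -3.32, -3.37 and -2.72. Ccnd1, cyclin D, which commits cells to the cycle, read -2.34, -2.42, -4.77, -4.50 and -4.15, a difference of -2.35. In each the low dose was close to the 3 h control and the 3 h high dose close to the 48 h control. Vip, a neuropeptide and a known CREB target that the CREB list above does not hold, stood at -1.15, -0.79 and -3.85 at 3 h, a difference of -3.06. It was below background in the 48 h control and at -0.95 at the 48 h high dose, so at that time the high dose was the higher. Rdh19, of the retinol dehydrogenase family, was high on the low-dose array alone, at -1.46 against -5.12 at the high dose.

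**Figure D3:**
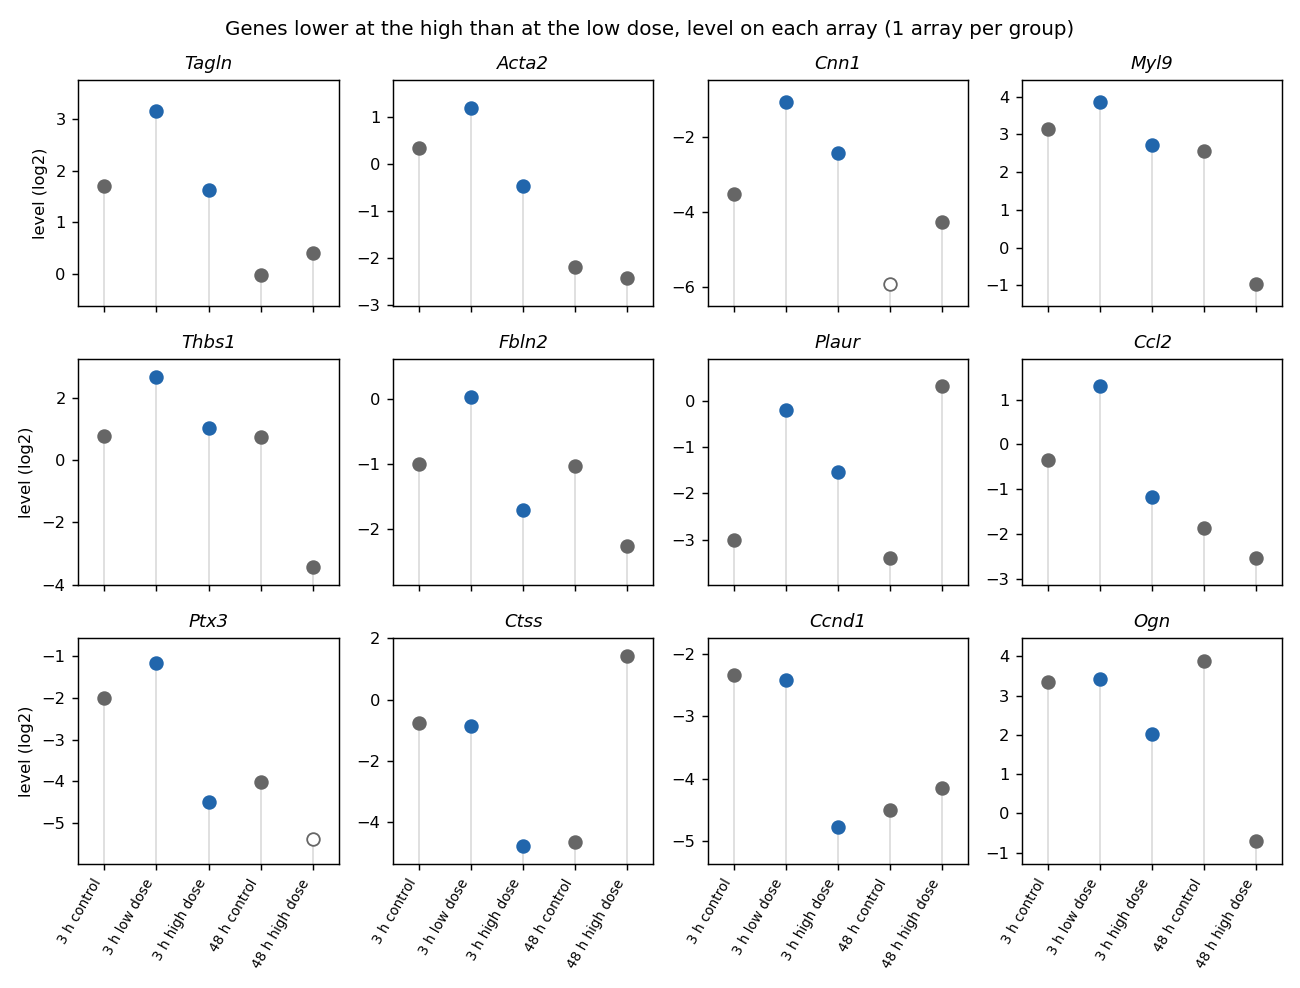
Level on each of the 5 arrays, in log2 relative to the array's 75th percentile, of 12 genes whose level was lower with the high dose; blue points are the 2 arrays compared, grey points the others, and an open point is below background. Tagln, Acta2, Thbs1 and Ccl2 are highest at the low dose, while Ctss and Ccnd1 are about as low in the 48 h control as at the 3 h high dose; vertical scales differ between panels.

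All called genes were then set against the difference between the controls, 48 h minus 3 h, which shares no array with the dose comparison. Between the controls 542 of 14018 genes (3.87%) differed at least 2-fold, with 2.50% higher and 1.36% lower at 48 h. Of 151 genes called higher at the high dose and measured in both controls, 117, or 77.5%, were also higher in the later control, and 49, or 32.5%, by 2-fold or more. Of 117 called lower, 91, or 77.8%, were also lower, and 42, or 35.9%, by 2-fold or more. Over all measured genes 51.2% were higher in the 48 h control, 2.48% by 2-fold and 1.32% lower by 2-fold. With the genes kept that were below background in a control, the same-sign shares were 74.9% and 75.6%. Called genes therefore differed between the controls far more often than genes at large, and mostly in the direction of the dose difference. Most called genes were dim, and they were not compared with genes of like level, so the part of signal level in these shares was not tested. Across 13924 genes Pearson's r of these differences was 0.29, as a description over genes that share arrays, slide and probe design. The control arrays differ in time and perhaps in line, and which of these moves with the dose difference cannot be told apart here.

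The called genes were also sorted by the position of the controls. The sorting uses the same 2 dose arrays that selected the genes, so in either direction the call itself partly decides the class. No share over all measured genes was taken, and the counts only describe where the controls lay. Of 151 higher genes measured on the 4 arrays other than the 48 h high dose, the high-dose array was at least 2-fold above both controls in 47, above the 3 h control only in 61 and above the 48 h control only in 7. In 9 the low-dose array was instead at least 2-fold below both controls, and 27 fell in none of these classes. The 47 include Fos, Egr1, Ier2, Nr4a1, Areg, Dusp2, Wdr92, C2cd4a, C2cd4b, Csf2rb2 and Aif1l. The 9 include Gmppb, an enzyme of GDP-mannose synthesis, at 1.83, 0.27, 2.02, 1.46 and 2.75 in the order given for Etv1. Tstd2, chosen after its values were seen, was similar, at 2.34, 0.67, 2.16, 2.26 and 2.34, so its difference of 1.49 lies in the low-dose array. Among the 61 are C3, Saa3, Kcnip4 and Lingo3, which stood at -2.99, -3.46, -0.39, -0.73 and -2.94.

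Of 117 lower genes measured on those 4 arrays, the high-dose array was at least 2-fold below both controls in 19, below the 3 h control only in 48 and below the 48 h control only in 8. In 10 the low-dose array was at least 2-fold above both controls, and 32 fell in none of these classes. The 10 include Tagln, Thbs1, Plaur, Ccl2, Ptgs2, Fbln2 and Tnfaip2. The 19 include Ogn, Cxcl5 and Rspo1, a Wnt agonist, at -1.45, -1.95, -5.09, -2.38 and -6.06. The 48 include Ctss, Cd5l, Nrn1, Ccnd1, Ptx3 and Colec12.

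The called genes were also set against the 48 h high dose minus the 48 h control, which shares no array with the dose comparison. It does share the 48 h control with the control difference above, where that array enters with the opposite sign. A low level in the 48 h control thus lowers the control difference and raises this one, and the 2 are not separate checks. In it 9.92% of 13739 genes were higher and 10.1% lower at 2-fold. Of 136 higher genes measured there, 92, or 67.6%, had the same sign, 62, or 45.6%, were 2-fold higher and 21, or 15.4%, 2-fold lower, and their median was 0.72. Among the 62 were Areg, Wdr92, Fos, Csf2rb2, Dusp2 and Aif1l. Of 95 lower genes, 36, or 37.9%, had the same sign, 19, or 20.0%, were 2-fold lower and 31, or 32.6%, 2-fold higher, and the median was 0.35. The 19 include Thbs1, Ogn, Col1a1, Fbln2, Myl9, Loxl1, Colec12 and Dkk3. These shares leave out 47 higher and 32 lower genes that were below background on 1 or both of the 48 h arrays, a filter that a low level at the 48 h high dose can itself decide. Of the 47, 34 were below background at the 48 h high dose alone, and 37 read lower there than in the 48 h control. Of the 32, 25 read lower there. With these genes kept, the same sign was seen in 102 of 183 higher genes, or 55.7%, and in 61 of 127 lower genes, or 48.0%, and 51.3% of all genes were above 0. Across 13621 genes Pearson's r was 0.16.

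**Figure D4:**
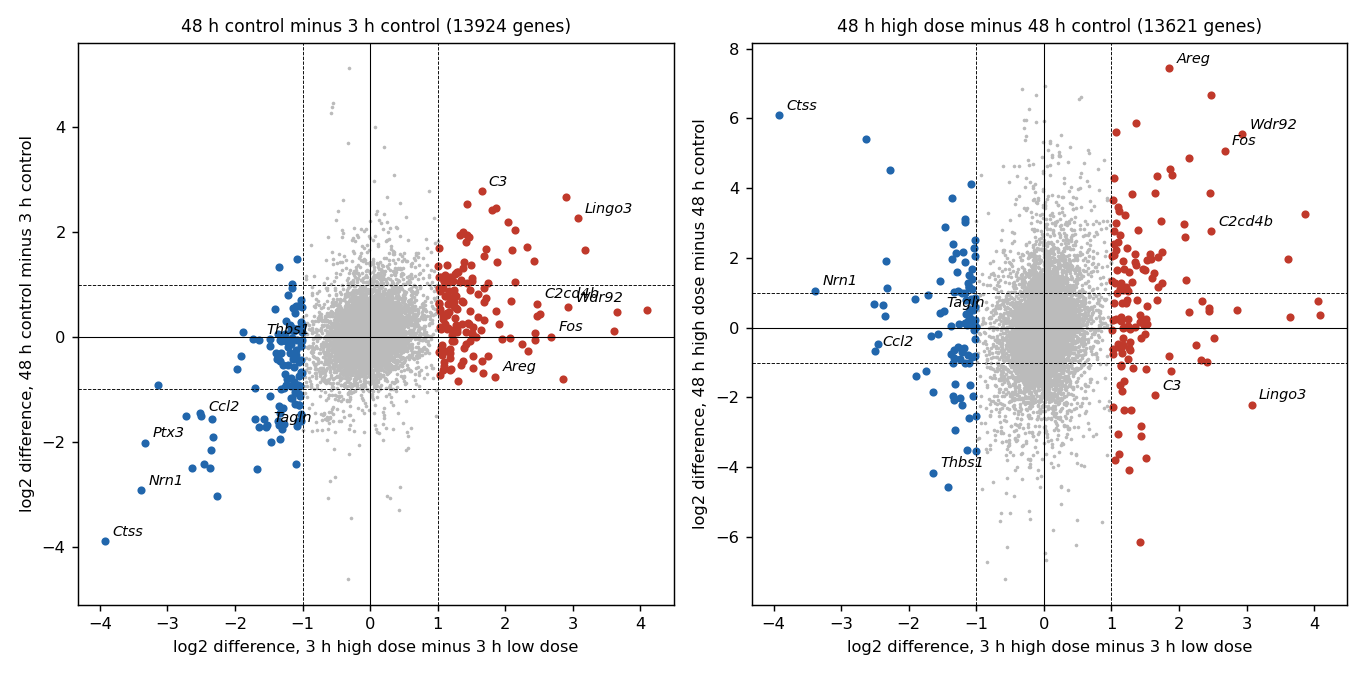
Log2 difference of the dose comparison at 3 h (horizontal) against the 48 h minus the 3 h control (left, 13924 genes) and against the 48 h high dose minus the 48 h control (right, 13621 genes); red points are genes called higher, blue points genes called lower, and dashed lines mark 2-fold. On the left 117 of 151 higher and 91 of 117 lower genes lie on the same side as in the dose comparison; on the right 92 of 136 and 36 of 95 do. The 48 h control enters both vertical axes, with opposite sign.

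Most other lists held close to 0. Among 25 genes of cholesterol synthesis and 25 of the cell cycle 0 were called, with medians of 0.01 and -0.04. The same was true of 16 neural crest genes (-0.09), 8 Schwann and glial genes (0.10), 18 p53 targets (-0.13), 22 receptor tyrosine kinases (0.05) and 14 reference genes (0.00). Likewise 0 were called among 24 genes of hypoxia and glycolysis (0.03), 22 of ATF4 and the unfolded protein response (-0.09), 13 heat shock genes (-0.04), 5 endothelial genes (0.15), 6 epithelial genes (0.11) and 2 skeletal muscle genes (-0.11, and 0.12 with dim probes kept). Among 7 adipocyte genes 6 lay below 0, with a median of -0.48 that was -0.19 with dim probes kept, and 6 melanocyte genes had a median of 0.37 that became 0.10. Of 15 cyclin D and CDK inhibitor genes Ccnd1 was the 1 called, with a median of 0.03. Respiratory chain genes had a median of -0.14, with 25 of 27 below 0 and none past 2-fold. Neuronal genes were called in both directions, Nefl, a neurofilament, at 1.52 and Syt1, of synaptic vesicles, at 1.07, against Nrn1 and Nefh at -1.11. After normexp Nefl, Syt1 and Nefh were within 2-fold, at 0.88, 0.74 and -0.76. Of 17 Wnt genes Dkk3, a secreted antagonist relative, was lower, at -1.05, and -0.77 after normexp. Of 11 parent genes of the fusion and their CREB or FET relatives 0 were called, with a median of 0.19. The largest of these was Crtc1, a CREB coactivator, at 0.56. Probe sequences were not analysed here, so these values do not check the fusion's induction.

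**Figure D5:**
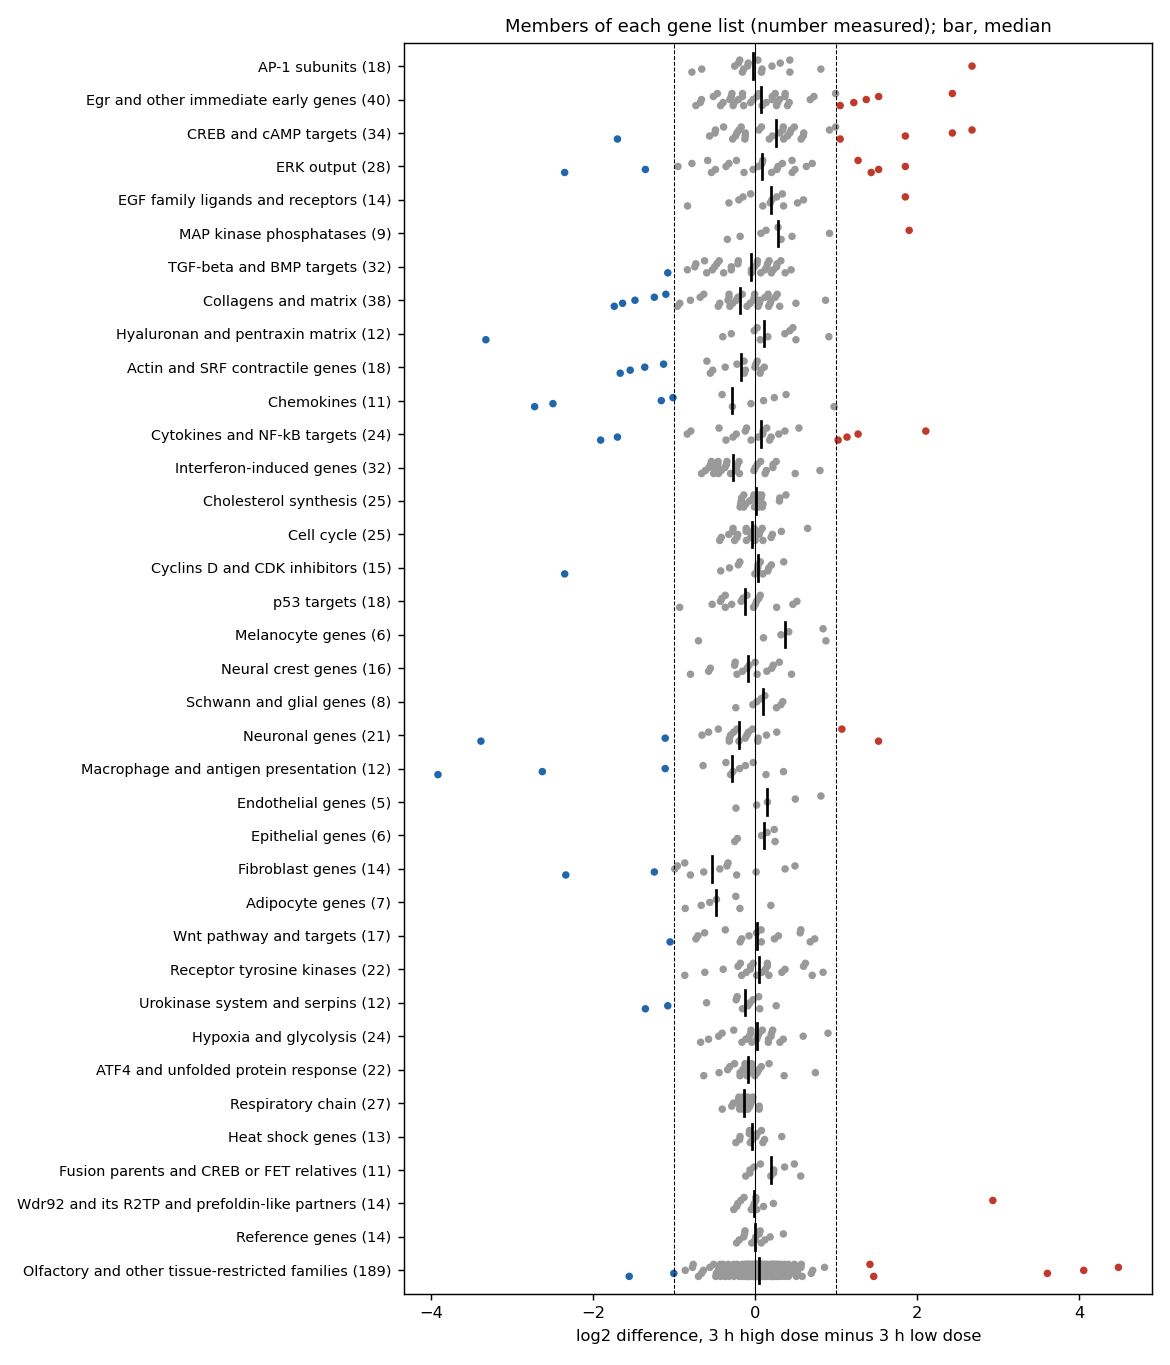
Log2 difference, 3 h high dose minus 3 h low dose, of every measured member of the gene lists with at least 5 measured members; each point is a gene, red at 2-fold higher, blue at 2-fold lower, the bar is the list's median and the dashed lines mark 2-fold. Called members of the matrix, contractile and chemokine lists are all lower, and those of the immediate early list all higher, while nearly all medians lie near 0.

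CRE letters were no more frequent in promoters of called genes than in those of measured genes. A full CRE stood in 1.79% of all promoters in the table and in 2.87% of promoters of measured genes. Among genes called higher it stood in 1 of 178 promoters, that of Areg, or 0.562%, and among genes called lower in 2 of 105, those of Usp29 and Hs3st2, named for this match. The 178 promoters belong to 139 of the 183 higher genes and the 105 to 85 of the 127 lower genes. Some genes thus count more than once, and the remaining called genes, Egr1 among them, had no promoter in this search. The half-site TGACG stood in 23.6% of promoters of higher genes, 20.0% of lower genes and 28.9% of measured genes. The AP-1 letters TGACTCA stood in 7.87%, 4.76% and 4.03% in that order, with Lif and Tnfaip3 among the higher genes. The CArG box was in 1.12% and 2.86% of promoters of higher and lower genes, among the latter Myl9, and in 1.40% of those of measured genes. Neither the window of Wdr92 nor that of Ptx3 held any of these letters. A match describes letters in this window and not a bound factor.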

How the data were processed

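Total RNA of 5 groups, 1 array each, was labelled with Cy3, per the labels' protocols. The deposited files hold linear spot intensities from Agilent Feature Extraction 10.7.3.1, per the submitters' processing notes. Intensities were background-subtracted and not scaled between arrays, per the file headers. The deposited series table matched them within 0.01 (log2). Its column medians were 38.6, 32.7, 32.2, 38.1 and 24.1 for 3 h control, low and high and 48 h control and high. Here control and outlier spots (111 to 146 per array) were dropped, log2 values were set relative to each array's 75th percentile, and spots were averaged per probe. Above background means that 0.5 or more of a probe's spots carried the authors' flag for it. RefSeq accessions (GRCm38.p6, names only) named 26413 of 55681 probes. Among 13195 measured probes without a name, 173 were higher and 64 lower (1.80%). The probe with the highest mean stood for its gene. A bound uses the lowest signal above background on the dim array, or the probe's own if higher.

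Genes were named by rule: Fos, Wdr92 and Ptx3, the extremes of the difference over all genes, bright genes and genes with several probes, up to 4 called members of each list, all AP-1 subunits, and the largest bounds. A few named genes are not reported here. Members, the 38 lists and the rule were chosen with earlier results of these data known. The CArG search and the comparison of the controls were added after values were seen. The 2-fold rule was tested on simulated data. Python 3.11.15, pandas 2.3.3 and limma 3.58.1 (normexp only) were used. Alternatives changed the scaling, background, filter, probe rule, outlier handling and threshold.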

Additional observations from a re-analysis of the deposited data

How the results depend on the processing

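With 183 genes higher and 127 lower (59.0% higher), centring on the median gave 52.4% higher. Normexp on the median signal, chosen after seeing the data because the planned fit on a mean signal was not run, gave 77 and 49, of which 77 and 46 were among the genes called before. Without the filter on dim probes there were 716 and 514, with a strict filter 86 and 61, and at 1.5-fold 522 and 468 (52.7% higher). Other scalings, the pixel median, the deposited table, averaging over probes and keeping outliers left both counts within 1.5 times. No value of a called named gene changed sign under these alternatives. Of 80 named genes called, 62 stayed past 2-fold under normexp, which moved 63 of 115 named values. The share of higher genes with the sign of the control difference was 69.9% after median centring, and that of lower genes with the same sign at 48 h was 50% under the strict filter. Under normexp 80.3% of the higher genes above background on both 48 h arrays kept their sign at 48 h and 85.1% of lower genes that of the control difference. Keeping genes below background on the 48 h arrays, chosen after seeing the data, gave 55.7% of higher genes with the same sign at 48 h. No paired analysis was possible because each group has 1 array, and leaving out an array leaves no comparison.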

Other observations

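Among the genes higher at both times, several belong to no list above, and all were chosen after their values were seen. Ucp1, the uncoupling protein of brown fat, stood at -2.21, -2.80 and -0.33 at 3 h (control, low, high) and at -1.81 and 4.86 at 48 h (control, high). Irf4, a lymphoid interferon regulatory factor, stood at -2.47, -2.31 and -0.24 and then at -2.50 and 0.49. Il13, a type 2 cytokine, stood at -5.31, -5.35, -2.88, -5.28 and -1.42 in the same order. In these 3 genes the low dose was within 1 log2 unit of both controls, and the 3 h high dose lay between them and the 48 h high dose. Mycn, a Myc family factor, was at -0.61, -0.48, 0.54, -0.90 and 2.75.

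Of the genes higher at the high dose at 3 h, 21 were at least 2-fold lower at the 48 h high dose than in the 48 h control with both levels above background, and 33 more read at least 2-fold lower with the high dose alone below background. Angpt1, angiopoietin, read -1.85, -1.87, -0.54, -0.80 and below background at the 48 h high dose. Inmt, a methyltransferase, read 1.55, 1.04, 2.46, 3.35 and -2.80, so its highest level was that of the 48 h control.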
